A study of Microtus ochrogaster with 40 samples.

Results

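Microglia are the resident immune cells of the brain, and the nuclei described here are 4198 microglia of 185995 kept nuclei (2.26%) in the nucleus accumbens tissue of 40 prairie voles (Microtus ochrogaster). They were selected on measured values: a nucleus had to hold at least 3 UMIs (unique molecular identifiers, 1 per captured RNA molecule) of Cx3cr1, Csf1r, P2ry12, C1qa, C1qb and C1qc from at least 2 of these 6 genes. It also had to hold no UMI of Mog, Gja1, Slc17a7, DRD1A or DRD2, which mark oligodendrocytes, astrocytes, glutamate neurons and the dopamine-receptor classes of medium spiny neurons. Barcodes were kept if they reached 500 UMIs and no more than 5% of these came from mitochondrial genes. The animals were 11 females housed with a male (female mate), 8 females housed with a female (female peer), 11 males housed with a female (male mate) and 10 males housed with a male (male peer). Every animal had spent 16 days with its partner, no drug or genetic change is named, and strain and age are not given in the sources used here. Each library came from 1 animal. The labels do not say which animals lived together, but the 20 couples of neighbouring label numbers were in 11 cases a female and a male mate and in 9 cases 2 peers of the same sex. Cage partners may therefore be among the animals, which the tests treat as independent.

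Microglia enter the brain early in development and maintain themselves there. Their survival depends on the receptor encoded by Csf1r, which binds the ligands encoded by Csf1 and Il34, and TGF-beta signalling maintains the resting gene program. They survey synapses with processes guided by the purine receptor P2ry12, receive the neuronal ligand Cx3cl1 through Cx3cr1, and make the 3 chains of complement C1q, which tags synapses and debris for engulfment. The nucleus accumbens is a striatal region of medium spiny neurons that takes part in reward and, in this species, in the formation of pair bonds.

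The 40 libraries held 194518 barcodes, from 1825 to 12519 per animal, and the kept nuclei held 347887353 UMIs, from 3002288 to 14907749 per animal. Male mate 2 stood apart as the 1 library with barcodes under 500 UMIs and had the lowest median per kept nucleus (662 UMIs, against 1622.5 in the middle of the 40 animals). Pairs of libraries shared a median of 28 kept barcodes, at most 1.525% of the smaller library (male peer 4 and male mate 11), and 10 of 4188 distinct microglial barcodes occurred in more than 1 library. The number of microglia per animal had a median of 97, with a low of 8 (male mate 2) and a high of 222 (female mate 4). Gene comparisons used the 38 animals with at least 20 microglia, which left out male mate 2 and male peer 1 (14 microglia).

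The label held against markers that the rule did not use. Levels are given as UMIs per 1000000 UMIs (CPM), pooled over all microglia and over all other kept nuclei, and they describe the selection without a test. Of 20 genes listed for resting microglia, 16 were measured, 13 stood more than 10 times higher in microglia than in the other nuclei, and 12 had a UMI in at least 5% of microglia. Tmem119, a surface protein of resident microglia, stood at 1875 CPM against 5.16, and was higher in microglia in 38 of 38 animals. Gpr34, a lysophosphatidylserine receptor, stood at 1862 CPM against 4.78. Cst3, which encodes the protease inhibitor cystatin C, stood at 44594 CPM against 689 and had a UMI in 99.6% of microglia and 43.9% of the other nuclei. Siglech was at 0 UMIs, and Olfml3 stood at 1.35 CPM against 1.60.

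The 6 genes of the rule describe how the members were chosen. Cx3cr1 stood at 5542 CPM in microglia and 12.2 in the other nuclei, with a UMI in 93.4% and 1.05% of them at median depths of 610 and 1589 UMIs. Csf1r stood at 4295 CPM against 10.6, and P2ry12 at 3095 against 7.78. The C1q chains stood at 1889 CPM for C1qa, 4681 for C1qb and 1569 for C1qc. All 6 genes were detected in 1324 microglia and 5 of them in 1361, while 154 microglia carried only 2. The median sum was 13 UMIs. At the threshold, 106 members had a sum of exactly 3, 109 nuclei just outside had a sum of 2 from 2 genes, and 8 had 3 or more from a single gene. A further 1177 nuclei passed the sum and were left out by an excluded gene, most often Slc17a7 (535 nuclei), with a median of 1173 UMIs. Of these, 34.7% were called doublets (barcodes holding 2 nuclei), against 4.81% of microglia and 4.09% of all kept nuclei.

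**Figure D1:**
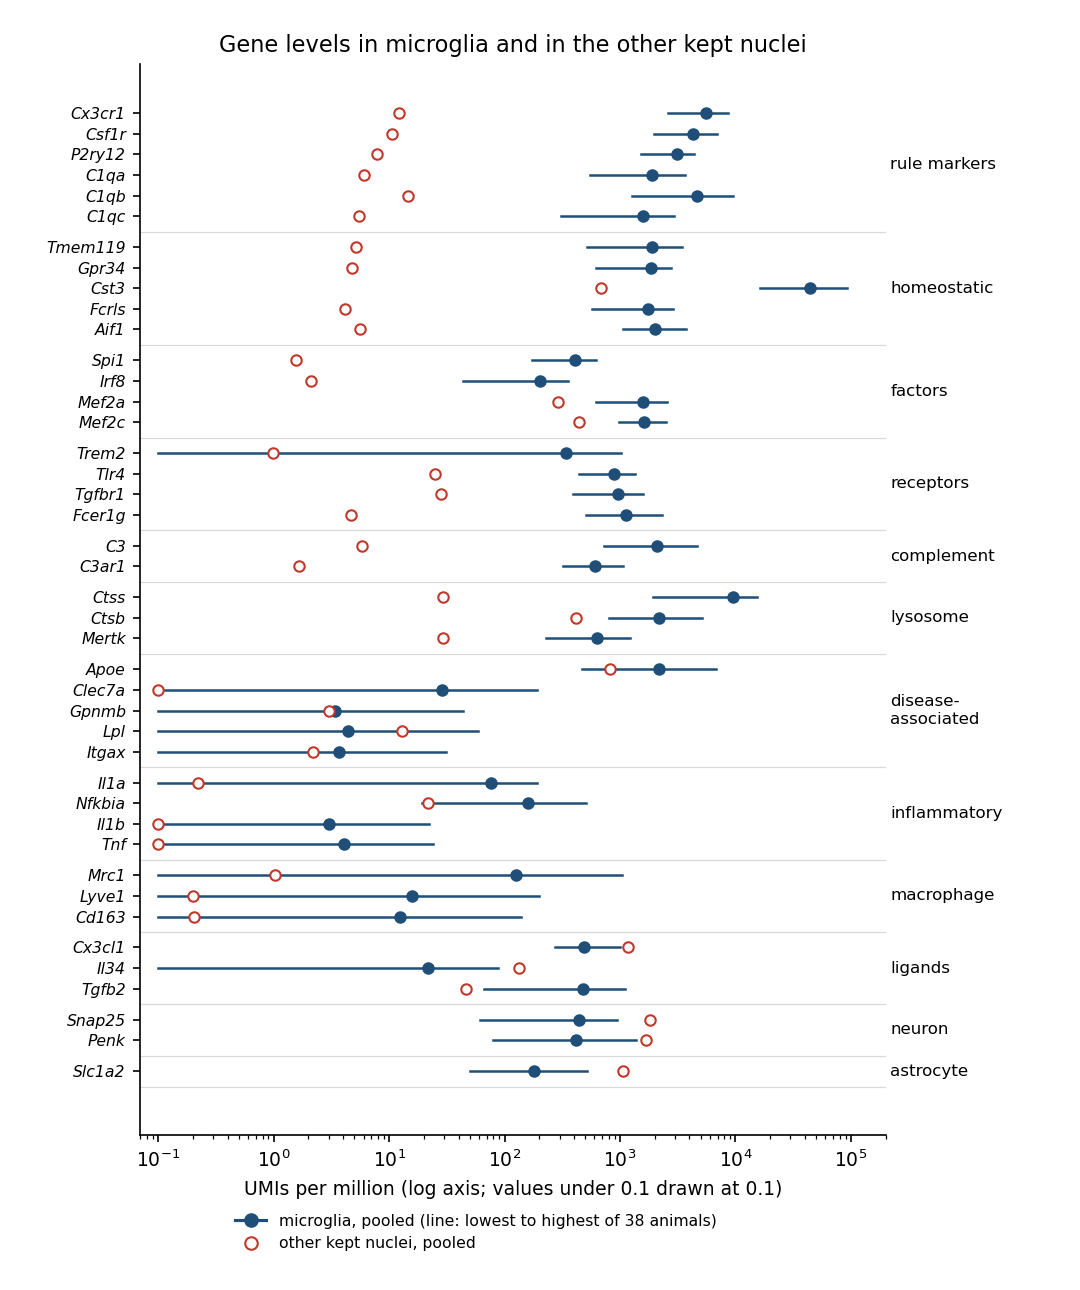
Levels of genes from the fixed lists in CPM on a log axis, with filled points for microglia pooled over all animals, lines from the lowest to the highest of 38 animals, and open points for all other kept nuclei. The 6 rule markers and the homeostatic genes lie far to the right in microglia (Tmem119 at 1875 against 5.16), while Lpl, Itgax and Gpnmb lie under 5 and the neuron genes lie to the left of the other nuclei.

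Among all genes, the 6 of the rule included, 3366 had a UMI in at least 5% of microglia. Of these, 343 stood more than 10 times higher in microglia than in the other nuclei, and 140 stood more than 100 times higher. The 20 with the highest ratio, among such genes outside the rule with at least 100 CPM, included I830077J02Rik, Siglecf, Fyb, ENSMOCG00000017990, Siglece, Slamf6, Cd84, Tmem156, Blnk, Fcrls, Fgd2, Cd180, Clec12a, Cd5l, Cd53, Mpeg1, Slc2a5, Lcp2 and Gpr34. Several encode receptors and adaptors of immune cells. Siglecf and Siglece, which encode sialic acid receptors, stood at 641 CPM against 1.32 and 201 against 0.45. Blnk, an adaptor of immune receptor signalling, stood at 884 CPM against 2.07, and Cd5l, a secreted scavenger-receptor protein, at 1485 against 3.68. Slc2a5, a fructose transporter, stood at 834 CPM against 2.12.

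The transcription factors that set microglial identity were present at different distances from the other nuclei. Of 13 measured factors, 13 were higher in microglia and 8 more than 10 times so. Spi1, the factor PU.1, stood at 408 CPM against 1.55, and Irf8, an interferon regulatory factor of myeloid cells, at 205 against 2.11. Ikzf1 stood at 138 CPM against 0.43 and Runx1 at 52.1 against 0.27. Mef2a and Mef2c, which neurons also use, stood at 1572 CPM against 293 and at 1626 against 441.

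Receptors and their signalling partners were likewise higher in 21 of 21 measured genes, and more than 10 times so in 20. Trem2, a lipid-sensing receptor, stood at 343 CPM against 0.98, and its adaptor Tyrobp at 101 against 0.58. Tlr4, the receptor for bacterial lipopolysaccharide, stood at 894 CPM against 25.1, and Tlr7, which senses single-stranded RNA, at 184 against 0.63. The TGF-beta receptor gene Tgfbr1 stood at 960 CPM against 27.9, and the purine receptor gene P2ry6 at 269 against 0.88. In the complement list, C3 stood at 2088 CPM against 5.81 with a UMI in 63.8% of microglia and 0.731% of the other nuclei, and its receptor C3ar1 at 605 against 1.65.

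Ligands were divided between the microglia and the other nuclei. Cx3cl1 stood at 483 CPM in microglia and 1177 in the other nuclei, Il34 at 21.5 and 134, Csf1 at 7.74 and 27.0, and Cd200 at 49.5 and 254. In microglia, 2 of 8 measured ligand genes stood higher, and both did so in 38 of 38 animals. They were Tgfb2, a TGF-beta ligand, at 476 CPM against 46.5, and Pros1, which bridges dying cells to the receptor Mertk, at 307 against 7.98. Mertk itself stood at 632 CPM against 29.1.

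Genes of engulfment and the lysosome were higher in microglia in 16 of 18 measured cases, with a median ratio of 4.44. The protease gene Ctss stood at 9448 CPM against 29.2 and was detected in 95.8% of microglia and 2.59% of the other nuclei. Ctsb stood at 2189 CPM against 416, and the cholesterol exporter gene Abca1 at 790 against 136. Of 18 measured genes known to rise in disease-associated microglia, 12 stood higher in microglia than in the other nuclei. Over all genes with a UMI in microglia 5919 of 14641 did so, and 2053 of 3366 with one in at least 5% of microglia. Of the 18, 7 had a UMI in at least 5% of microglia. Among those 7 were Trem2, Tyrobp and Ctsb, given above, and Fth1, a ferritin chain gene, at 512 CPM against 348. Others were low. Cst7 stood at 0.34 CPM, Lpl at 4.37, Itgax at 3.70, Gpnmb at 3.36 and Lgals3 at 1.68. Apoe was present at 2186 CPM against 818 in the other nuclei, with a UMI in 42.6% of microglia and 31.3% of the other nuclei.

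Of 18 measured inflammatory genes, 15 stood higher in microglia and 11 more than 10 times so, 5 had a UMI in at least 5% of microglia, and 2 were at 0. Several cytokine and chemokine genes were low. Il1b stood at 3.03 CPM, Tnf at 4.04, Ccl2 at 0.34, and Il6 and Il10 had no UMI in 4198 microglia, which allows a level of up to 1.01 CPM. Il1a, an alarm cytokine, stood at 77.1 CPM against 0.22, Cd14 at 370 against 2.16 and the prostaglandin synthase gene Ptgs1 at 587 against 26.6. Interferon-stimulated genes ranged from Usp18 at 0 to B2m, the light chain of MHC class I, at 960 CPM. For MHC class II, the chaperone gene Cd74 stood at 431 CPM and H2-Ab1 at 17.5. Cell cycle genes stood at 0.34 to 9.08 CPM, none of 8 with a UMI in 1% of microglia.

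Of 10 measured genes of the list of steroid and peptide receptors and their targets, 3 had a higher value in microglia than in the other nuclei. They were Fkbp5, Sgk1 and Esr2, the last with too few UMIs to rank. On the list, 4 genes had a UMI in at least 1% of microglia, and 2 in at least 5%. The list summed to 0.727 of its level in the other nuclei. OXTR, the oxytocin receptor gene, stood at 2.02 CPM against 6.16 in the other nuclei, Esr1 had no UMI, and Crhr1 stood at 0.67 against 9.79. The opioid receptor genes Oprm1 and Oprk1 stood at 18.8 and 12.8 CPM, below the 106 of each in the other nuclei. Fkbp5 and Sgk1, which glucocorticoids induce in many cells, stood at 125 and 143 CPM against 53.8 and 118. Esr2 stood at 0.34 CPM against 0.28, under the 1.01 CPM that 0 UMIs would allow, so it cannot be called higher.

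Markers of other immune cells were sought because they share genes with microglia. Of 7 measured T and NK cell markers, 6 were at 0 UMIs, including Cd3e and Nkg7, and of 4 B cell markers 3 were at 0. Of 4 measured monocyte and granulocyte markers, 2 stood more than 10 times higher in microglia, and none had a UMI in 1% of microglia. They summed to 17.8 CPM against 1.45, with Ccr2 at 1.35 CPM and S100a9 at 0. The mast cell list summed to 162.8 CPM against 43.85. Of its 3 measured genes, 1 (Kit) had a UMI in at least 5% of microglia and 2 were at 0. Markers of border-associated macrophages, which live along vessels and meninges, were unequal: of 10 measured, 9 stood higher in microglia than in the other nuclei, 4 had a UMI in at least 1% of microglia and 2 in at least 5%. Those 2 were Ms4a7, in 20.0%, and Stab1, a scavenger receptor gene, in 10.4%. Mrc1 had a UMI in 1.10% of microglia, Lyve1 in 0.476% and Cd163 in 0.286%. When the microglia were divided into 14 sub-clusters, 28 nuclei (0.667%) from 18 animals formed one led by Mrc1, Lyve1, F13a1, Stab1, Cd163 and Folr2. In these 28 nuclei the macrophage list summed to 29420 CPM and the 6 rule markers to 13220. Nuclei with RNA of border-associated macrophages thus lie within the rule, but 16 of the 28 were called doublets. Whether they are macrophages or mixtures of 2 nuclei was not tested. Another sub-cluster, of 375 nuclei (8.93%), was led by Stab1, with 2033 CPM of the macrophage list and 26060 of the rule markers.

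RNA of neurons was present in microglia, pooled over all animals, at a fraction of its level elsewhere. Snap25, a synaptic vesicle fusion protein of neurons, stood at 445 CPM against 1825 and had a UMI in 18.6% of microglia, against 73.6% of the other nuclei. The neuron list summed to 0.253 of its level in the other nuclei and the medium spiny neuron list, which includes the excluded DRD1A and DRD2, to 0.213. The oligodendrocyte list, which includes the excluded Mog, summed to 0.257. Per animal, both neuron lists were summed together without DRD1A and DRD2 (12 genes). They ran from 0.0938 to 0.475 of their level in the other nuclei in the 38 animals with at least 20 microglia, and stood at 0.0822 in male peer 1. In male mate 2, with 8 microglia, they stood at 1.28, above the other nuclei. A sub-cluster of 448 microglia was led by Penk and other medium spiny neuron genes and held 79 called doublets, and another of 342 was led by oligodendrocyte genes, Mbp among them. A sub-cluster of 135 with 27 called doublets was led by Tac1, a medium spiny neuron gene, and by the oligodendrocyte precursor genes Pdgfra, Gpr17 and Cspg4, with 10930 CPM of the rule markers, the lowest of the 14 sub-clusters, and 3095 of the medium spiny neuron list.

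Microglia were shallow nuclei, and the floor of 500 UMIs lay inside their distribution. Their median was 610 UMIs and 497 genes, against 1589 UMIs and 1235 genes in the other kept nuclei. The range of 500 to 549 UMIs held 27.0% of microglia and 5.48% of all kept nuclei, whereas 6.77% of microglia and 66.4% of all kept nuclei had 1000 or more. Within the 500 to 549 range, microglia made up 11.1% of kept nuclei, and among nuclei of 1000 or more they made up 0.230%. Raising the floor lowered the share from 2.26% to 1.34% at 600 UMIs and to 0.766% at 700. In male mate 2, 30 of 6294 barcodes with at least 200 and under 500 UMIs passed the marker rule (0.477%, exact 95% interval 0.322 to 0.680), against 8 of 6112 at or above 500 (0.131%, 0.0565 to 0.258). Of these 30, 23 had under 300 UMIs (0.960% of 2396 barcodes), and 2 had at least 400 (0.0908% of 2202 barcodes, 0.0110 to 0.328). In the other 39 animals every barcode in the files used here had at least 500 UMIs, so the counts of microglia are counts above that floor.

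**Figure D2:**
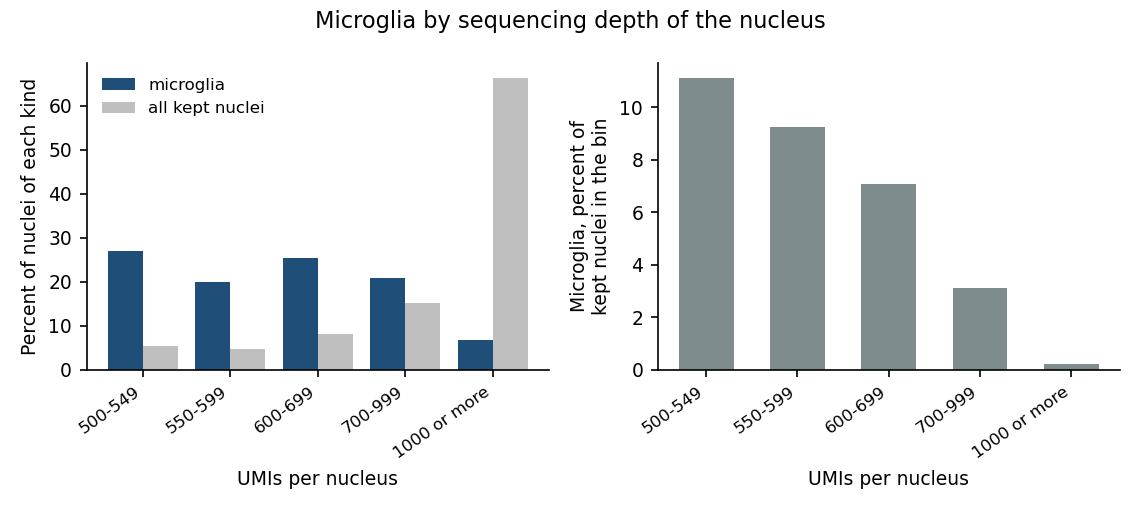
On the left, the percent of microglia (dark bars) and of all kept nuclei (grey bars) in each range of UMIs per nucleus. On the right, the percent of the kept nuclei in each range that are microglia, which falls from 11.1% at 500 to 549 UMIs to 0.230% at 1000 or more.

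The study's design asks whether the type of partner, the sex of the animal, or both together, went with a different number of microglia. The share of kept nuclei ran from 0.928% to 5.31% in female mates (median 2.19%), from 1.38% to 4.20% in female peers (median 3.54%), from 0.131% to 3.97% in male mates (median 1.80%) and from 0.488% to 3.82% in male peers (median 1.96%). The groups overlapped. Female mates averaged 2.33% ± 1.29 (SD, n = 11) and female peers 3.23% ± 1.03 (SD, n = 8). Male mates averaged 2.21% ± 1.15 (SD, n = 11) and male peers 2.08% ± 1.26 (SD, n = 10). Mates were lower than peers by a mean of 0.383 percentage points, averaged over the sexes (difference -0.383, two-sided permutation p = 0.327, adjusted over 3 tests 0.327). Females were higher than males by 0.630 percentage points (permutation p = 0.111, adjusted 0.256). The partner difference in females minus that in males was -1.03 percentage points (permutation p = 0.171, adjusted 0.256). Without male mate 2 the 3 differences were -0.2791, 0.5262 and -1.241 percentage points (permutation p = 0.470, 0.180 and 0.0953). None passed the test, and the spread within groups was larger than each main difference. The highest share was that of female mate 1, with 125 of 2356 nuclei (exact 95% interval 4.43% to 6.29%).

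Animals with more nuclei carrying a Mog UMI had a larger share of microglia. Across the 40 animals, the percent of kept nuclei with a Mog UMI and the microglial share had Pearson r = 0.752 and Spearman rho = 0.756, and r was 0.715 without the 2 animals farthest from the median (male peer 8 and male mate 2). Within groups, r was 0.698 in female mates (rho = 0.518), 0.436 in female peers (rho = 0.452), 0.874 in male mates (rho = 0.827) and 0.866 in male peers (rho = 0.867). The rule excludes every nucleus with a Mog UMI, both are shares of the same nuclei, and 1 Mog UMI does not make a nucleus an oligodendrocyte, so these values are a description with no test. The share with a Slc17a7 UMI, also excluded by the rule, had r = -0.0822 (rho = -0.0328), which turned to 0.0646 without the 2 animals farthest from the median.

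Depth also moved with the share. The median UMIs per microglial nucleus and the microglial share had r = 0.560 and rho = 0.570, and r = 0.442 without male mate 3 and female mate 1. Within groups, r was 0.883 in female mates (rho = 0.582), 0.557 in female peers (rho = 0.286), 0.105 in male mates (rho = 0.0182) and 0.742 in male peers (rho = 0.806). This relation was added after the data were seen, and it carries no test, since the floor of 500 UMIs is part of the rule and bears on both measures. The median UMIs per kept nucleus gave r = 0.319 and rho = 0.293, also with no test. Within groups r ran from -0.460 in female mates to 0.809 in male mates, with 0.397 in female peers and 0.346 in male peers. With every nucleus thinned to 500 UMIs before the rule was applied, the differences in share by partner, sex and their interaction were -0.428, 0.632 and -1.03 percentage points (permutation p = 0.288, 0.119 and 0.184). With a floor of 750 UMIs, added after the data were seen, they were -0.250, 0.377 and -0.629 (permutation p = 0.332, 0.129 and 0.203), where the mean share over the 40 animals was 0.704% in place of 2.41%.

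**Figure D3:**
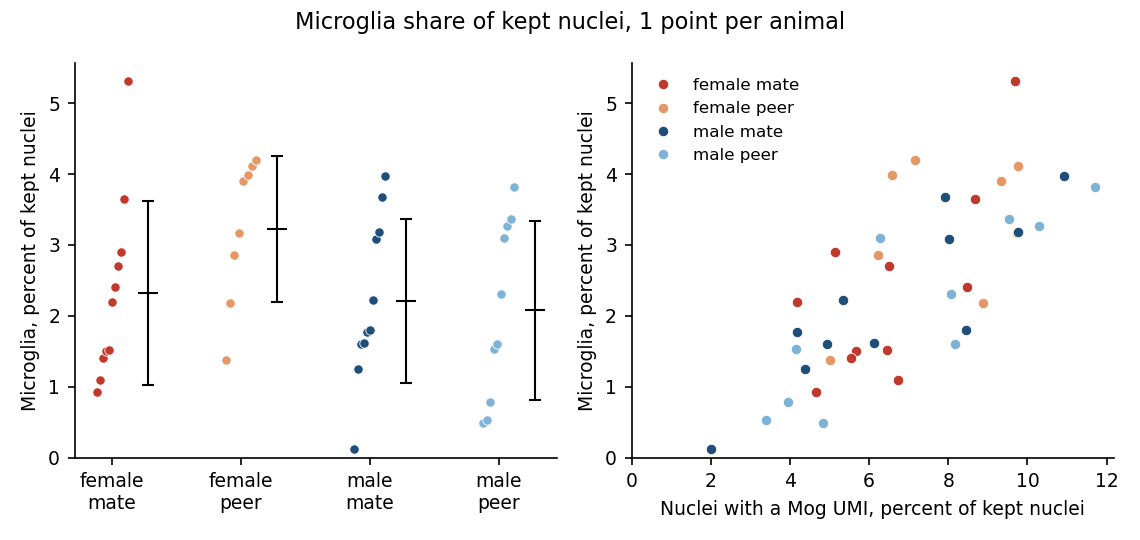
On the left, microglia as a percent of kept nuclei in each of 40 animals by group, with bars for the mean and SD. On the right, the same percent against the percent of kept nuclei with a Mog UMI, where animals with a larger Mog share have a larger microglial share (r = 0.752 over all 40).

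Expression within microglia was compared on UMI counts summed per animal, with totals from 22688 to 161477 UMIs (median 70990) over 2369 genes. The type of partner went with no called gene in edgeR's quasi-likelihood test at an adjusted p under 0.05: 0 of 2369 genes passed (0% called), with 131 at an unadjusted p under 0.05 and 0 called by DESeq2. The lowest p belonged to 3 genes. Tnpo1, which encodes a nuclear import receptor, stood at 134 to 299 CPM in 21 mates (median 177) and at 76.6 to 238 in 17 peers (median 146), a log2 difference of 0.47 (SE 0.13, edgeR adjusted p = 0.830). Cldnd1, a claudin-like membrane protein gene, stood at 75.4 to 396 CPM in mates (median 204) and at 166 to 447 in peers (median 263), with a log2 difference of -0.49 (SE 0.14, edgeR adjusted p = 0.830). Bsn, which encodes a protein of the presynaptic active zone, was lower in microglia than in the other nuclei in 38 of 38 animals and had a log2 difference of 0.78 (SE 0.24, edgeR adjusted p = 0.830). In all 3 genes the ranges of mates and peers overlapped.

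The gene lists gave no called gene for the type of partner either, but several leaned one way. Of 7 tested disease-associated genes, 6 had lower values in mates (median log2 difference -0.39, -0.56 within females and -0.07 within males). So had 7 of 8 transcription factors (-0.17) and 11 of 17 receptor and signalling genes (-0.11). The same held for 3 of 3 complement genes (-0.22), 3 of 4 inflammatory genes (-0.21) and 3 of 3 interferon genes (-0.26). The 2 tested steroid and peptide receptor list genes were higher (0.09). Of 12 tested homeostatic genes, 10 had lower values in mates, with a median log2 difference of -0.25, beside 0.01 over all 2369 genes. The median was -0.15 with depth as a covariate and -0.11 with blocks of 10 label numbers, and within males it turned to 0.01 with these blocks. Gpr34 had -0.36 (SE 0.15, edgeR adjusted p = 0.830), and Entpd1, an enzyme that degrades extracellular ATP, -0.32 (SE 0.15, edgeR adjusted p = 0.851). All 6 rule markers were lower in mates, with a median of -0.23, but these genes chose the members, so they are not counted as such a list. Their median was -0.11 with depth as a covariate and -0.07 with the blocks, where within males it was 0.10. Of 13 tested genes of engulfment and the lysosome, 12 were lower, with a median of -0.11. Within females 11 of 13 were lower (median -0.18), and within males 5 of 13 were (median 0.04). Within males the direction depended on the setting: 10 of 13 were lower with at least 40 microglia per animal (median -0.07), 8 with a marker sum of at least 5 from 3 genes (-0.06) and 7 in limma-voom (-0.03). Over both sexes the median turned to 0.03 with blocks of 10 label numbers in the fit, where 7 of 13 genes were higher, and was -0.01 with the neuron RNA level described next as a covariate. The 4 tested medium spiny neuron genes were all higher in mates, with a median of 0.50, and both tested pan-neuronal genes were higher, with a median of 0.25. With depth as a covariate these medians were 0.33 and 0.08, and with the neuron RNA level itself as a covariate they were 0.09 and -0.10. That level is a sum over genes of these same lists, so a smaller difference under it was built in and tests nothing.

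The level of neuron RNA in microglia, again summed without DRD1A and DRD2, differed between the same animals. Both neuron lists together stood, in microglia relative to the other nuclei, at 0.111 to 0.444 in female mates (median 0.292), at 0.107 to 0.404 in female peers (median 0.170), at 0.0938 to 0.449 in male mates (median 0.236) and at 0.0953 to 0.475 in male peers (median 0.236). The groups overlapped. Mates minus peers gave a log2 difference in the summed CPM of these genes in microglia of 0.73 within females (permutation p = 0.0486, adjusted over 3 tests 0.146) and 0.06 within males (permutation p = 0.863, adjusted 0.863), and 0.39 over both sexes (permutation p = 0.108, adjusted 0.162), in tests added after the data were seen. With this level as a covariate, the median of the homeostatic list was -0.15 and that of the 6 rule markers was -0.08. Its part in the differences by partner was not tested beyond that covariate.

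Within females, the gene nearest the threshold was Nfkbia, which encodes the NF-kappa-B inhibitor I-kappa-B-alpha and is itself induced by NF-kappa-B. It stood at 19.2 to 156 CPM in female mates (median 108), at 99.8 to 505 in female peers (median 232), at 87.3 to 273 in male mates (median 138) and at 72.8 to 301 in male peers (median 159). Female peers held the highest values, and 6 of the 8 stood above every female mate. The log2 difference between mates and peers within females was -1.26 (SE 0.27, edgeR adjusted p = 0.0669; 0 of 2369 genes, 0%, passed, with 183 at an unadjusted p under 0.05). DESeq2 called Nfkbia and no other gene (log2 difference -1.29, adjusted p = 0.0259), and edgeR called it without the filter on low counts (adjusted p = 0.0195) and without female mate 7, female peer 5 or female peer 6. It was not called under the other settings, with an adjusted p of 0.169 with blocks of 10 label numbers, 0.174 without called doublets, 0.175 with depth as a covariate, 0.229 in limma-voom and 0.354 with a marker sum of at least 5 from 3 genes, the highest of these settings. Its adjusted p over all 38 fits that left out 1 animal ran from 0.00863 to 0.652, the highest without female peer 8. Within males the difference was -0.01 (SE 0.29), and the test of the difference between the sexes gave -1.25 (SE 0.39, edgeR adjusted p = 1.00).

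Cldnd1 and Slfn2 followed within females, with log2 differences of -0.72 (SE 0.19) and -0.79 (SE 0.21) and an edgeR adjusted p of 0.383 each. Without female mate 7, Cldnd1 passed at -0.91 (edgeR adjusted p = 0.00753). Slfn2, a Schlafen family gene of immune cells, stood at 38.9 to 309 CPM in female mates (median 182) and at 200 to 602 in female peers (median 335). Within males, 0 of 2369 genes (0%) passed edgeR's test and 0 passed DESeq2's, and 67 had an unadjusted p under 0.05. The lowest p belonged to Mgat1, Mlxip and Rc3h2, with log2 differences of -0.97 (SE 0.30), -0.87 (SE 0.28) and 0.50 (SE 0.17). The interaction of partner and sex gave 0 of 2369 genes (0%) in edgeR's test and 0 in DESeq2's, 79 had an unadjusted p under 0.05, and the lowest p belonged to Nfkbia, Ppme1 and Abi1.

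Sex went with 1 called gene of 2369 in edgeR's test (0.0422%; 72 at an unadjusted p under 0.05), Kdm6a, which encodes a histone H3 lysine demethylase on the X chromosome that escapes X inactivation in many mammals. In microglia it stood at 184 to 362 CPM in female mates (median 285), at 156 to 481 in female peers (median 315), at 96.5 to 262 in male mates (median 167) and at 43.8 to 353 in male peers (median 157). The sexes overlapped, with 19 females at a mean of 306 CPM ± 83.7 (SD) and 19 males at 184 ± 78.9 (SD). The log2 difference was 0.76 (SE 0.15, edgeR adjusted p = 0.0167), and DESeq2 called the same single gene. The call was lost without female peer 4 and without male peer 4, 7 or 8, where the adjusted p was 0.0516 to 0.0589. It was also lost when called doublets were removed (0.68, edgeR adjusted p = 0.158), with blocks of 10 label numbers (0.73, adjusted p = 0.0935) and without the filter on low counts (0.76, adjusted p = 0.0549).

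Of the other tested X-linked genes, Kdm5c and Ddx3x had higher values in females and Usp9x did not, and none passed the test. Kdm5c, a histone demethylase gene, stood at 171 to 530 CPM in females (median 302) and at 44.1 to 397 in males (median 218), a log2 difference of 0.57 (SE 0.15, edgeR adjusted p = 0.333). Ddx3x, an RNA helicase gene, had 0.51 (SE 0.16, edgeR adjusted p = 1.00), and Usp9x had -0.07 (SE 0.19). In the other nuclei of the same 38 animals, Kdm5c had a log2 sex difference of 0.54 (SE 0.03, edgeR adjusted p = 3.3e-14), Kdm6a 0.52 (SE 0.07, adjusted p = 1.08e-05) and Ddx3x 0.30 (SE 0.06, adjusted p = 0.0929), in sums that hold far more UMIs. There Usp9x had 0.02 (SE 0.09, edgeR adjusted p = 0.984) and Eif2s3x, a translation factor gene, -0.12 (SE 0.04, edgeR adjusted p = 0.883). The sex difference in microglia minus that in the other nuclei was 0.20 (SE 0.15) for Kdm6a, 0.03 (SE 0.14) for Kdm5c and 0.18 (SE 0.16) for Ddx3x, each with an edgeR adjusted p of 1.00.

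**Figure D4:**
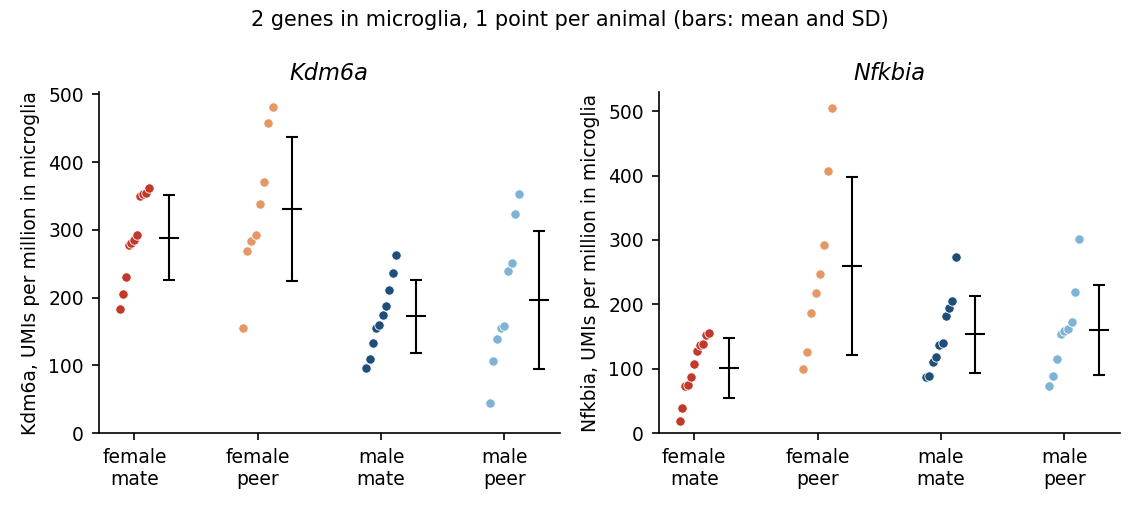
Kdm6a and Nfkbia in microglia, in CPM, with 1 point for each of 38 animals and bars for the mean and SD of each group. Kdm6a is higher in both female groups with overlap (mean 306 against 184), and Nfkbia is highest in female peers (median 232).

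The test of the sex difference in microglia against that in the other nuclei called 1 gene of 2369 (0.0422%), ENSMOCG00000007938, which carries no symbol in the deposited gene names. In microglia it stood at 57.6 to 226 CPM in females (median 96.3) and at 106 to 265 in males (median 150). In the other nuclei the sexes were close, at 133 to 180 CPM (median 161) in females and 142 to 179 (median 157) in males. The difference of the differences was -0.65 on the log2 scale (SE 0.13, edgeR adjusted p = 0.0349). It missed the threshold when genes with lower counts were let in (adjusted p = 0.0708) and when the other nuclei were thinned to the total of the microglia (-0.44, SE 0.19, adjusted p = 1.00), a setting that called no gene. In the comparison of sexes within microglia alone, this gene passed in edgeR's test without female mate 5 or female peer 7 (adjusted p = 0.0180 and 0.0496), and in limma-voom with all 38 animals (log2 difference -0.58, adjusted p = 0.0343).

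Some genes differed widely in microglia from one animal to the next. Among 6284 genes with at least 100 UMIs in the microglia of the 38 animals, the spread between animals was measured as the chi-square of the UMI counts against a common rate, divided by its degrees of freedom, where 1 is counting error alone. Its median was 1.32, and it was above 10 in 68 genes. The genes described here were chosen after their values were seen, so they carry no test. Npy and Sst, neuropeptides of interneurons, were among the most uneven, but 1 nucleus of male peer 4 carried 58.3% of all Npy UMIs and 56.1% of all Sst UMIs in microglia. In Cxcl13, Rbp4 and the genes described below as at 0 in 10 or more animals, no single nucleus carried more than 3% of the UMIs.

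Cxcl13, which encodes a chemokine that attracts B cells, was detected in the microglia of some animals and not in those of others. It was at 0 UMIs in 28 of 38 animals, which together held 3060 microglia. These animals were set apart by that 0, so at this depth it sets no limit on how many of their microglia express the gene. In 9 animals it was detected in at least 3 microglia, together in 216 of 1024 (21.1%), and in male mate 1 it was detected in 1 nucleus. Outside the 38 animals, male peer 1 had it in 1 of 14 microglia. The highest share was in male mate 7, with 32 of 90 microglia (35.6%, exact 95% interval 25.7 to 46.3) and 957 CPM. Male peer 3 had 28.8% (18.3 to 41.2), female peers 7 and 6 had 24.2% and 24.0%, male peer 10 had 23.2%, female mate 9 had 20.8%, male mate 6 had 14.2%, male mate 9 had 12.1% and female mate 11 had 7.87%. The 9 animals were 2 female mates, 2 female peers, 3 male mates and 2 male peers. In the other nuclei of these 9 animals, 0.116% to 0.473% had a Cxcl13 UMI, and in those of the 28 animals 0% to 0.15% had one. The median UMIs per microglial nucleus were 556.5 to 717 in the 9 animals and 553 to 793 in the 28.

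Rbp4, the gene of retinol-binding protein, split the animals in another way. In 22 animals 31.7% to 62.4% of microglia had an Rbp4 UMI, and in the other 16 animals 0% to 13.4% had one, with 4 animals at 0 (female mate 9, female peer 4, male peers 3 and 10). Its level had a median of 930 CPM in the microglia of the 22 animals and 39.2 CPM in the 16. In the other nuclei of the same animals, Rbp4 was at 33.3 to 73.3 CPM and 27.4 to 68.0 CPM, so that in the 16 animals its median in microglia lay at the median of the other nuclei (39.9 CPM). The 22 animals were 5 female mates, 5 female peers, 6 male mates and 6 male peers. Of the 9 animals with Cxcl13 in at least 3 microglia, 7 were among the 16 with little Rbp4. The median UMIs per microglial nucleus were 556.5 to 793 in the 22 animals and 553 to 749 in the 16.

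**Figure D5:**
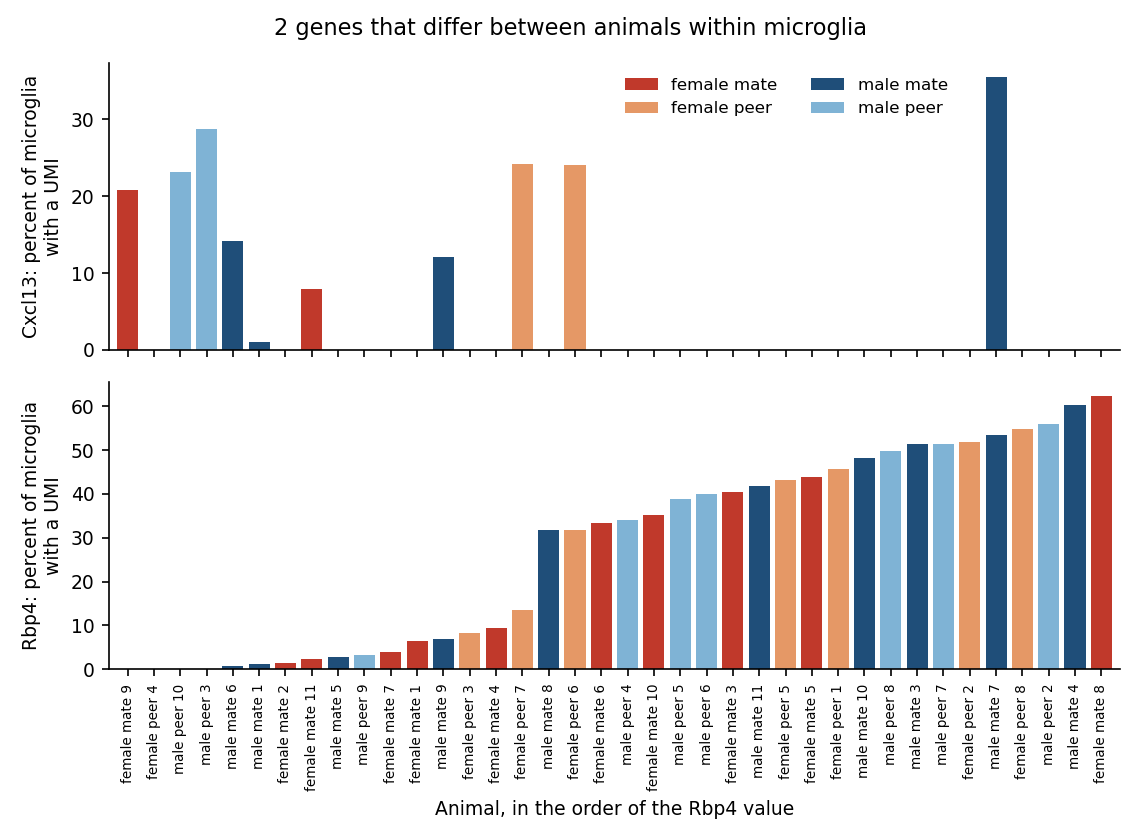
Percent of microglia with a Cxcl13 UMI (top) and an Rbp4 UMI (bottom) in each of 38 animals, ordered by the Rbp4 value and coloured by group. Cxcl13 is at 0 in 28 animals and at 7.87% to 35.6% in 9, and Rbp4 jumps from 13.4% to 31.7%, with every group on both sides.

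Other genes showed the same kind of pattern. ENSMOCG00000012629 was at 0 UMIs in 29 of 38 animals and reached 321 CPM in male mate 3, with 264 in female peer 6, 247 in female peer 3 and 149 in female mate 11. Phldb2 was at 0 in 21 animals and reached 435 CPM in female mate 4 and 343 in female mate 11, while in the other nuclei every animal had 10.0 to 39.6 CPM. The collagen gene Col5a2 was at 0 in 21 animals and reached 427 CPM in male peer 9, against 10.1 to 83.4 in the other nuclei. The protease gene Adamts12 was at 0 in 10 animals with a median of 176 CPM, and Stpg4 was at 0 in 11 with a median of 23.5.

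Some genes detected in most animals also varied widely in level. Blnk stood at 52.9 CPM in male mate 1 and 2962 in male peer 4, with a median of 696. Tmem176b was at 0 in female mate 2, male peer 5 and male peer 6 and reached 1281 CPM in female mate 7. Cst3 ran from 16296 CPM in female mate 5 to 92090 in male peer 7 with a median of 38231, and its group medians were 28840 in female mates, 39160 in female peers, 38880 in male mates and 40550 in male peers. All 4 groups overlapped in Cst3. Cd74 ran from 76.8 to 1347 CPM and Apoe from 469 to 6725 CPM, again with overlap of all groups.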

How the data were processed

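Nuclei from frozen nucleus accumbens punches of 40 voles were sequenced with 10x Genomics chemistry, 1 animal per library, per the labels' protocols. The deposited files hold UMI counts per gene and barcode, made by the authors with Cell Ranger 3.1.0, per the submitters' processing notes. The genome build and annotation are not given in the sources used here. Each animal is 1 replicate, taken as independent, and p-values measure the spread between animals, which includes dissection and library preparation.

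Microglia were found by the marker rule. The members and lists were chosen with earlier results of these data known. Raw counts were summed per animal over 38 animals with at least 20 microglia and tested with edgeR 4.0.16 (R 4.3.3; TMM, filterByExpr at a minimum count of 10, 2369 genes, quasi-likelihood test, Benjamini-Hochberg), with 4 groups in 1 model. Alternatives were DESeq2 1.42.0, RLE factors, other filters on counts, members and doublets, depth or neuron RNA as a covariate, blocks of 10 label numbers, limma-voom (limma 3.58.1) with and without neighbouring label numbers as a random block, and leaving out each animal. The genes named were the rule's own genes, list genes, the 20 with the highest ratio to the other nuclei, and per comparison up to 5 called genes of lowest p, or 3 where none was called. Genes that differed most between animals, and the genes called under single alternatives, were chosen after their values were seen. Tests of shares and of summed levels used 100000 random permutations. Doublets were scored by neighbours among artificial doublets of the same library at 0.8% per 1000 nuclei, and called doublets were kept except in an alternative. Sub-clusters used Leiden (leidenalg 0.10.2) on 2000 variable genes and 20 components at resolution 0.5. Other tools were Python 3.11.15, numpy 2.4.6, scipy 1.17.1, pandas 2.3.3 and scikit-learn 1.9.0. Tests were tested on simulated data. Intervals are exact binomial at 95% and, with limits from a count of 0 (3 counts), cover counting error only. Gene symbols come from the deposited gene names, and list genes without an entry there were not analysed here. Some genes of the lists are not reported here. No promoter sequence was used.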

Additional observations from a re-analysis of the deposited data

Results flagged for a closer look

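Among groups of 8 to 10 animals, 89 sets of values over 30 measures in microglia were searched for a single animal far from its group. In these sets 15 were found. The limit used gives about 1 in 20 groups by chance for normally distributed values. Many measures were genes chosen from these data for their spread or low p, and the measures share animals. The 15 cannot therefore be set against that rate. Sets of 11 animals were not searched, which left out female mates in every measure and male mates in the share. Measures other than the share used the 38 animals with at least 20 microglia. Male peer 7 had the highest Cst3 and C1qa of its group, at 92090 CPM (the other male peers 24240 to 50660) and 3685 CPM (920 to 1959). Male mate 9 had the lowest Tmem119 of its group at 513 CPM (1534 to 2476). Male mate 3 had a median of 793 UMIs per microglial nucleus (556 to 603), Cd74 at 1007 CPM (85.4 to 474) and Cldnd1 at 257 CPM (176 to 217). Male peer 8 had a median of 697 UMIs per nucleus (565.5 to 611.5).

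Apoe stood at 5105 CPM in male peer 3 (555 to 2576), where Tnpo1 stood at 238 (77.1 to 155). Blnk stood at 1439 CPM in male mate 11 (52.9 to 751). Bsn stood at 307 CPM in male peer 2 (49.5 to 129), Cldnd1 at 377 in male peer 9 (176 to 264.5) and Slfn2 at 602 in female peer 1 (200 to 370). Mlxip stood at 194 CPM in male mate 1 (22.1 to 96.5), and ENSMOCG00000007938 at 227 in male mate 6 (106 to 166).

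The sex difference of ENSMOCG00000007938 in microglia differed from that in the other nuclei by -0.65 on the log2 scale, the 1 such difference past the threshold. In male mate 2, 30 of 6294 barcodes with at least 200 and under 500 UMIs passed the marker rule, outside the nuclei compared here.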

How the results depend on the processing

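The differences in the microglial share by partner, sex and their interaction kept their direction and did not pass the test under any alternative. With a floor of 750 UMIs they were -0.250, 0.377 and -0.629, each smaller by more than 1.5 times in percentage points, with the mean share at 0.704% in place of 2.41%. Leaving out each animal in turn gave -0.532 to -0.279, 0.481 to 0.762 and -1.33 to -0.856 percentage points. Numbers of called genes changed with the processing as follows. Without the filter on low counts, 3 genes were called for partner (Npy, Slco3a1 and ENSMOCG00000000045), 3 within males (Npy, ENSMOCG00000000045 and ENSMOCG00000005084), 1 within females (Nfkbia) and 0 for sex. Male peer 4 holds the single nucleus with most Npy UMIs, and 1 nucleus each carried 56 of the 157 UMIs of ENSMOCG00000000045 and 37 of the 121 of ENSMOCG00000005084, both also highest in male peer 4. Slco3a1 had 19 UMIs in all. DESeq2 called 1 gene within females. With the neuron RNA level as a covariate, a setting added after the data were seen, 1 gene was called for partner (Abca9, log2 difference 1.31, adjusted p = 0.0437). For sex, 0 genes were called without called doublets and 0 with blocks of 10 label numbers. The difference between the sex effects in microglia and in the other nuclei called 0 genes with the other nuclei thinned and 0 at a minimum count of 5. Leaving out each animal gave 0 to 2 called genes for sex and 0 to 2 within females. Across animals, the correlation of the share with median UMIs per microglial nucleus (added after the data were seen) was 0.560, and 0.442 without 2 animals, and that with Slc17a7 was 0.0646 without 2. Among alternatives other than leaving out 1 animal, 84 values were counted as unchanged. Beside them, 12 numbers of called genes moved, 1 correlation was reversed and 2 were stronger. For shares and correlations, unchanged means the same direction and call. For numbers of called genes it means an equal number, 0 included, or one within 1.5 times of it, whichever genes were called. The cause was not tested in any case. Neighbouring label numbers may mark cage partners, so 3 checks were added after the data were seen. Deviations of the share from the group mean correlated at 0.0834 between neighbours, and means over neighbours gave a difference by partner of -0.320 percentage points (permutation p = 0.4657). In limma-voom with neighbours as a random block (estimated correlation 0.0247), 2 genes were called for sex, Kdm6a and ENSMOCG00000007938, and 0 in the other comparisons, as without the block (2 for sex). Replicate numbers within groups follow the order of the labels. A female mate and a male mate with the same replicate number are therefore neighbours in the labels, and neighbouring peers have successive replicate numbers. Whether such animals lived together is not stated. The search of promoters for a motif, planned with the gene names, was not run. Depth limits these results: a median of 610 UMIs per nucleus and 97 microglia per animal leave 2369 genes tested, and the floor of 500 UMIs lies within the microglial distribution.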
